A study of Mus musculus with 3 samples.

Results

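Foxp4 is a forkhead transcription factor of the Foxp subfamily, whose members bind DNA as dimers and are known mostly as repressors of transcription. Acetylation of histone H3 at lysine 27 (H3K27ac) marks active enhancers and promoters, and many enhancers lie inside introns, often far from the start of the gene that holds them. The regions described here are peaks of Foxp4 inside introns that coincided with an H3K27ac peak in mouse beige adipocytes, heat-producing cells found among the fat cells of white depots. A total of 354 of the 16938 Foxp4 peaks belonged to them.

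The starting material was the stromal vascular fraction (SVF) of inguinal white adipose tissue (iWAT) from C57BL/6 mice, which holds the precursors of fat cells. Per the labels' protocols these cells grew in 20% serum for 3 days and then, with regular changes of medium, to confluence. Differentiation was induced over 48 h in 10% serum by dexamethasone at 1 µM, isobutylmethylxanthine at 0.5 mM, troglitazone at 5 µM, the thyroid hormone T3 at 50 nM and insulin at 5 µg/ml. The last 3 of these agents stayed in the medium afterwards. Chromatin immunoprecipitation with sequencing (ChIP-seq) gave 1 Foxp4 library, 1 H3K27ac library and 1 input DNA library, and the deposited peaks of the first 2 were used here. All libraries come from the same kind of cell, with no untreated or mutant arm and no replicate, and the labels do not say how many animals were pooled.

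The regions were chosen by the authors' peak calls and annotation. A Foxp4 peak on chromosomes 1 to 19 qualified if the deposited annotation placed its centre in an intron, if that centre lay more than 1000 bp from the nearest transcription start site (TSS), and if at least 1 bp of it lay under an H3K27ac peak. Of 6971 distal intronic Foxp4 peaks, 354 met the overlap condition, or 5.08% (exact Clopper-Pearson 95% interval 4.57 to 5.62%). This share is fixed by the choice and is given as a description. With 1 library per antibody no test between groups is possible, so shares are given with exact 95% intervals, which cover counting error only. Each value is an average over all cells in the culture, in which fewer cells with a bound site and weaker binding per cell cannot be told apart. The authors' score of a peak ranks it within its own list, and sequencing depth is unknown from the lists.

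The label of beige adipocyte was checked against H3K27ac promoter peaks, those centred within 1000 bp of the TSS. The mark was present at 6 of 8 adipocyte markers (Plin1, Lpl, Cidec, Lipe, Pparg and Cebpa) and at 1 of 8 beige and brown fat markers, Ebf2. With peaks anywhere counted by the nearest TSS, the adipocyte marker Fabp4 and the beige and brown markers Ppargc1a, Cox8b and Elovl3 had one as well. Ucp1, Cidea and Dio2, and the adipocyte marker Adipoq, had no H3K27ac peak. Of the markers of other cells, 2 of 6 of progenitors (Pdgfra and Ly6a), 1 of 4 of macrophages (Cd68), 0 of 4 of endothelium and 0 of 4 of skeletal muscle carried the promoter mark. Away from the promoter, the progenitor markers Pdgfrb, Cd34 and Dlk1 and the macrophage marker Csf1r had an H3K27ac peak assigned to them. So had the endothelial markers Pecam1, Cdh5 and Kdr, and 2 of the 4 endothelial markers held a distal intronic one. Dpp4, Adgre1, Ptprc, Tek and the skeletal muscle markers had none. Markers of progenitors, macrophages and endothelium thus carried the mark too, and their part in the results was not tested.

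Most of the regions were acetylated inside the intron, and some lay beside an acetylated gene start. The H3K27ac peak itself lay in an intron for 334 of the 354 regions (94.4%, interval 91.4 to 96.5%), and in the promoter class for 9. For 33 regions (9.32%, interval 6.50 to 12.8%) the H3K27ac peak had its own centre within 1000 bp of a TSS, so that the Foxp4 peak lay toward the side of an acetylated promoter. Among the regions named in the text, this holds for those of Trio, Gpbp1, Zeb2, Eif4e2, Hdac7, Id3, Foxo1, Lmna and Mlxipl, for the intron 1 region of Zbtb16 and for the one of Nfe2l2 with the higher score. A further check used the starts in the RefSeq promoter table of GRCm38.p6, the assembly of mm10, which holds starts that the deposited annotation may lack. By those starts, 7 of the 342 regions on the chromosomes covered had their centre within 1000 bp of a start.

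No genome sequence was used here, and sequence could be read only where a region reached into a RefSeq promoter window, which runs from 250 bases before to 50 bases after a start. This was the case for 2 regions, and both also ranked among the 5 with the strongest H3K27ac peaks. The region in intron 8 of Ptpa (649 bp, Foxp4 score 34, H3K27ac score 184), the gene of an activator of protein phosphatase PP2A, covers a start of Ptpa inside the gene, 25891 bp downstream of the TSS used for the choice. The region in intron 1 of Hdac7 (418 bp, Foxp4 score 27, H3K27ac score 167), a class IIa histone deacetylase, covers the start of the gene model Gm33636. Its H3K27ac peak covers 9 of the 199 bp printed here, whereas all 286 bp of the Ptpa stretch are covered. The RefSeq sequences are given on the strand of the window, with matches to the motifs named further on in capitals; neither stretch has one. The stretches lie at chr2:30441617-30441902 and chr15:97830537-97830735, both on the plus strand of GRCm38.p6.
Ptpa intron 8: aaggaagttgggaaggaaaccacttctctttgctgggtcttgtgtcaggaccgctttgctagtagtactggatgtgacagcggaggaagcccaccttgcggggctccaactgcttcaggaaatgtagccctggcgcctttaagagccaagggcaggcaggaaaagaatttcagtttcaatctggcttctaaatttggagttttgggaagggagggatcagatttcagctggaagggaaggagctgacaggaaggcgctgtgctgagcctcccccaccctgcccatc
Hdac7 intron 1: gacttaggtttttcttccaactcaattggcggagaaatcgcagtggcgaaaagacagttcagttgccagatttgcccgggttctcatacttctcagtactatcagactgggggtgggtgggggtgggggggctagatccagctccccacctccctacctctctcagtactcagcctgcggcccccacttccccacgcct

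At 3 of the host genes, a promoter window held a stretch of at least 150 bp that lay inside both a Foxp4 and an H3K27ac promoter peak. They are examples and need not stand for the 28 host genes that had both promoter peaks. At Hdac7 the promoter peak (Foxp4 score 34) and the intronic region lie under the same H3K27ac peak of score 167. Mideas, a gene linked to histone deacetylase complexes, had a Foxp4 score of 29 at this stretch, another promoter Foxp4 peak of score 41, and an H3K27ac score of 106. Id3, an inhibitor of basic helix-loop-helix factors, had a promoter Foxp4 score of 25 and an H3K27ac score of 129. The stretches are chr15:97831529-97831745 on the minus strand, chr12:84218862-84219131 on the minus strand and chr4:136143572-136143733 on the plus strand.
Hdac7 promoter: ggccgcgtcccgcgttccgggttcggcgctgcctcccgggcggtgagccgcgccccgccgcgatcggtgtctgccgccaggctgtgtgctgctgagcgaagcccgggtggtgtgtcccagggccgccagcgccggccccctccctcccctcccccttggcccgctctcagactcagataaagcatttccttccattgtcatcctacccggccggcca
Mideas promoter: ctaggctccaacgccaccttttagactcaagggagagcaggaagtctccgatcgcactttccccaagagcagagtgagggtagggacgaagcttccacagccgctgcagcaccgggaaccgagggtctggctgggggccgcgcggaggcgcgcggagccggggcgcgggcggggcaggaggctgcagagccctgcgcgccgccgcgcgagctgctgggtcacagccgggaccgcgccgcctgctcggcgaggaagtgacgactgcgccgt
Id3 promoter: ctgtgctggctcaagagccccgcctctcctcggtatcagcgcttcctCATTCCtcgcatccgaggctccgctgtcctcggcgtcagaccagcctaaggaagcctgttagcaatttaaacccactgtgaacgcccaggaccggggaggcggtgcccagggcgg

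The intronic stretches had a GC content of 53.5% at Ptpa and 56.8% at Hdac7, and the promoter stretches 72.4% at Hdac7, 71.1% at Mideas and 63.6% at Id3. A total of 8 short motifs were searched on both strands. They were TGTTTAC of forkhead factors, TGANTCA of AP-1, TTGCNNAA of C/EBP, CCCNNGGG of EBF, TTGGCA as a core element of NFI, ACANNNTGT of the glucocorticoid receptor, AGGTCA as a core element of nuclear receptors and GGAATG of TEAD. The only match in the 5 stretches was 1 TEAD motif at Id3, read on the opposite strand. The same stretch of all 31396 promoter windows holds that motif in 8.75% of cases. The forkhead motif was in none of the 5, and the windows of the length and position of the Ptpa stretch hold it in 3.52% of cases. The absence of a match says only that these letters are not in these stretches.

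The Foxp4 peaks lay at varied places along and beside the H3K27ac peaks. The Foxp4 peaks were 284 to 1299 bp wide, with a median of 400 bp, and their H3K27ac peaks 324 to 5844 bp, with a median of 692 bp. The centres lay a median of 262 bp apart (quartiles 139 and 423 bp). In 128 regions (36.2%) the Foxp4 centre fell in the middle 50% of the H3K27ac peak, in 122 (34.5%) it fell in the outer parts and in 104 (29.4%) it lay outside the peak. H3K27ac covered all of the Foxp4 peak in 115 regions (32.5%, interval 27.6 to 37.6%) and at least 50% of it in 249 (70.3%). Each H3K27ac peak met only 1 of the regions, and 7 regions touched more than 1 H3K27ac peak.

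**Figure D1:**
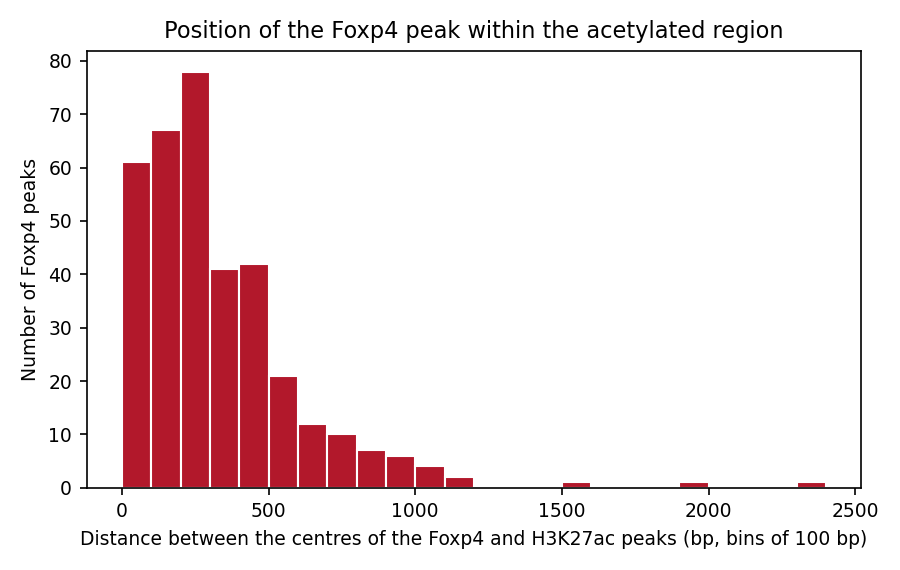
Number of acetylated intronic Foxp4 peaks (y axis, n = 354) by the distance in bp between the centre of the Foxp4 peak and that of the H3K27ac peak it shares most with, in bins of 100 bp (x axis). The median is 262 bp and the largest distance, at Zeb2, is 2319 bp.

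The overlap ranged from the whole peak to a few bases. The smallest overlaps were 4 bp at the gene model Gm13986, 7 bp at Trio, a guanine nucleotide exchange factor gene, and 9 bp at the cholesterol transporter gene Abca1. Just beyond the limit, an intronic Foxp4 peak of Adam12 (score 34) lay 1 bp from an H3K27ac peak, one of Nsmce2 (score 23) lay 5 bp away and one of Klf15 (score 50), a Krüppel-like factor of fat and muscle metabolism, lay 8 bp away. By distance to the TSS, the region of Gpbp1 (score 41) was just inside at 1006 bp. The overlapping intronic peaks of Carnmt1 (score 27) at 999 bp and Ndufb2 (score 35) at 993 bp fell just outside.

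The Foxp4 score of the regions ran from 20 to 85 with a median of 33, against a median of 27 at the 6617 distal intronic Foxp4 peaks without H3K27ac. The list contains 6 score values (21, 27, 34, 41, 49 and 57) that recur far more often than their neighbours. They made up 144 of the 354 regions (40.7%, interval 35.5 to 46.0%) and 5020 of the 6617 other peaks (75.9%, interval 74.8 to 76.9%). Seen from the other side, 2.79% of distal intronic Foxp4 peaks at recurrent scores and 11.6% of those at other scores overlapped H3K27ac. Among the regions, those at recurrent scores had a median H3K27ac score of 43 and the others one of 46, and the median widths of their Foxp4 peaks were 420 and 391 bp. What makes these scores recur was not tested. These values use the peak calls of the choice itself and are a description.

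**Figure D2:**
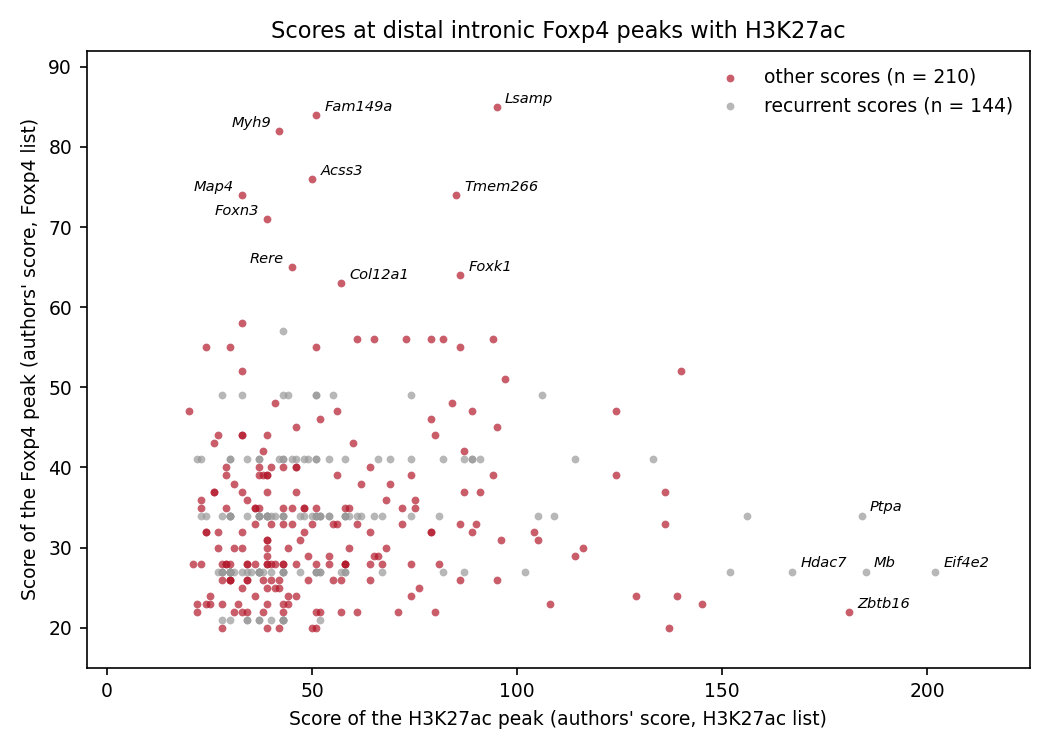
Authors' score of each Foxp4 peak (y axis) against the authors' score of its H3K27ac peak (x axis), 1 point per region (n = 354), grey at recurrent Foxp4 scores. The regions with the highest Foxp4 scores, led by Lsamp at 85, and those with the highest H3K27ac scores, led by Eif4e2 at 202, are different ones.

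The regions lay closer to gene starts than other intronic Foxp4 peaks. The distance to the nearest TSS had a median of 12518 bp (quartiles 3193 and 36697 bp), against 26122 bp at distal intronic Foxp4 peaks without H3K27ac, 23744 bp at intergenic Foxp4 peaks with H3K27ac and 18388 bp at distal intronic H3K27ac peaks without Foxp4. Between 1 and 5 kb from a TSS lay 113 regions (31.9%, interval 27.1 to 37.1%), against 910 of the 6617 intronic Foxp4 peaks without H3K27ac (13.8%, interval 12.9 to 14.6%). Beyond 100 kb lay 24 regions (6.78%, interval 4.39 to 9.92%), against 16.0% of those peaks. Of intronic H3K27ac peaks without Foxp4, 9.27% (interval 8.50 to 10.1%) lay beyond 100 kb, with an interval that overlaps that of the regions. Between 1 and 5 kb lay 22.2% of them (interval 21.1 to 23.4%), below the interval of the regions. The most distant was in intron 1 of Lsamp, 630111 bp downstream of the TSS.

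**Figure D3:**
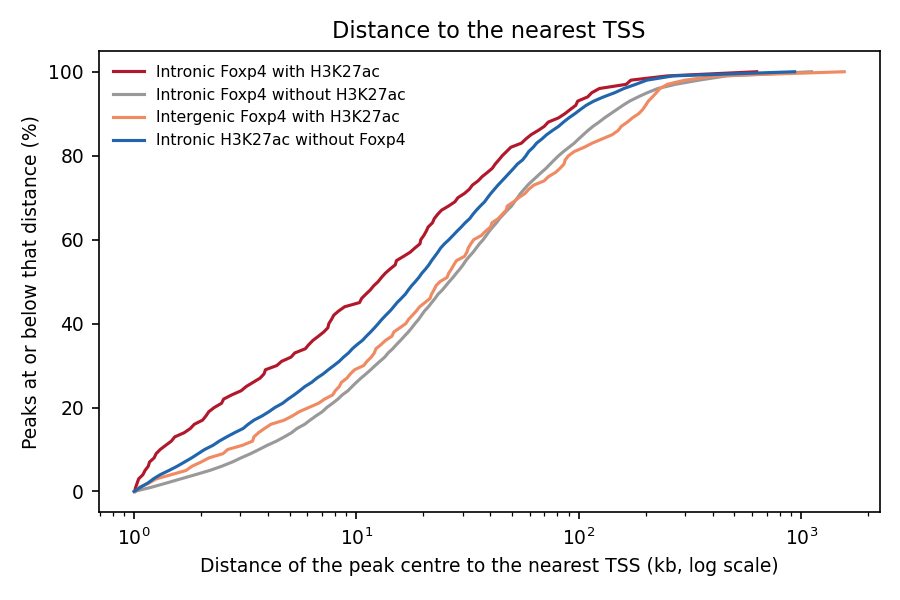
Cumulative share of peaks (y axis, %) by distance of the peak centre to the nearest TSS (x axis, kb, log scale) in the 4 sets of peaks. The line of the acetylated intronic Foxp4 peaks runs above the others over most of its range, with a median of 12518 bp.

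The first intron held 176 of the 354 regions (49.7%, interval 44.4 to 55.1%), against 2035 of 6617 intronic Foxp4 peaks without H3K27ac (30.8%, interval 29.6 to 31.9%) and 2185 of 5385 intronic H3K27ac peaks without Foxp4 (40.6%, interval 39.3 to 41.9%). The second intron held 53 regions and the third 34. Part of this goes with the distance, since the first intron starts near the TSS. Among peaks more than 5 kb from the TSS, the share in the first intron was 37.8% of the regions (91 of 241, interval 31.6 to 44.2%), 25.6% of intronic Foxp4 peaks without H3K27ac (interval 24.5 to 26.7%) and 32.5% of intronic H3K27ac peaks without Foxp4 (interval 31.1 to 34.0%). The interval of the regions overlaps the last of these and not the one before it. Up to 5 kb the share was 75.2% of the regions (interval 66.2 to 82.9%) and 63.2% of intronic Foxp4 peaks without H3K27ac. Beyond 20 kb it was 26.6% of the regions (interval 19.5 to 34.8%) and 18.7% of those peaks. In both of these ranges the share of the regions was higher, but its interval overlaps that of those peaks. At the far end of a gene stood the region of Col12a1, in intron 58 of 65.

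Repeats were less common at the centres of the regions than at other intronic Foxp4 peaks. A repeat was annotated at 51 centres (14.4%, interval 10.9 to 18.5%), against 31.0% (interval 29.9 to 32.1%) of intronic Foxp4 peaks without H3K27ac, 20.8% (interval 16.5 to 25.7%) of acetylated intergenic Foxp4 peaks and 22.0% (interval 20.9 to 23.1%) of intronic H3K27ac peaks without Foxp4. LINE elements, the long interspersed retrotransposons, were at 7 centres (1.98%, interval 0.799 to 4.03%), against 10.0% of intronic Foxp4 peaks without H3K27ac. SINE elements were at 15 centres (4.24%) and LTR elements at 16 (4.52%), against 9.57% and 7.33% of those peaks, and the interval of the regions for LTR elements (2.61 to 7.24%) overlaps that of those peaks (6.71 to 7.98%). At the acetylated peaks of the other sets the classes came closer. LINE elements were at 3.15% of acetylated intergenic Foxp4 peaks and 3.96% of intronic H3K27ac peaks without Foxp4, and LTR elements at 6.31% and 4.53%, all with intervals that overlap those of the regions. SINE elements were at 7.57% and 10.3% of them, and the interval of the second (9.51 to 11.1%) lies above that of the regions (2.39 to 6.89%). Without the recurrent scores the share of repeats was 12.4% in the regions and 27.9% in intronic Foxp4 peaks without H3K27ac. CpG islands were annotated at 17 centres (4.80%, interval 2.82 to 7.58%), against 9 of the 6617 intronic Foxp4 peaks without H3K27ac (0.136%) and 14 of 317 acetylated intergenic Foxp4 peaks (4.42%). Of intronic H3K27ac peaks without Foxp4, 1.47% (interval 1.16 to 1.83%) had one.

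**Figure D4:**
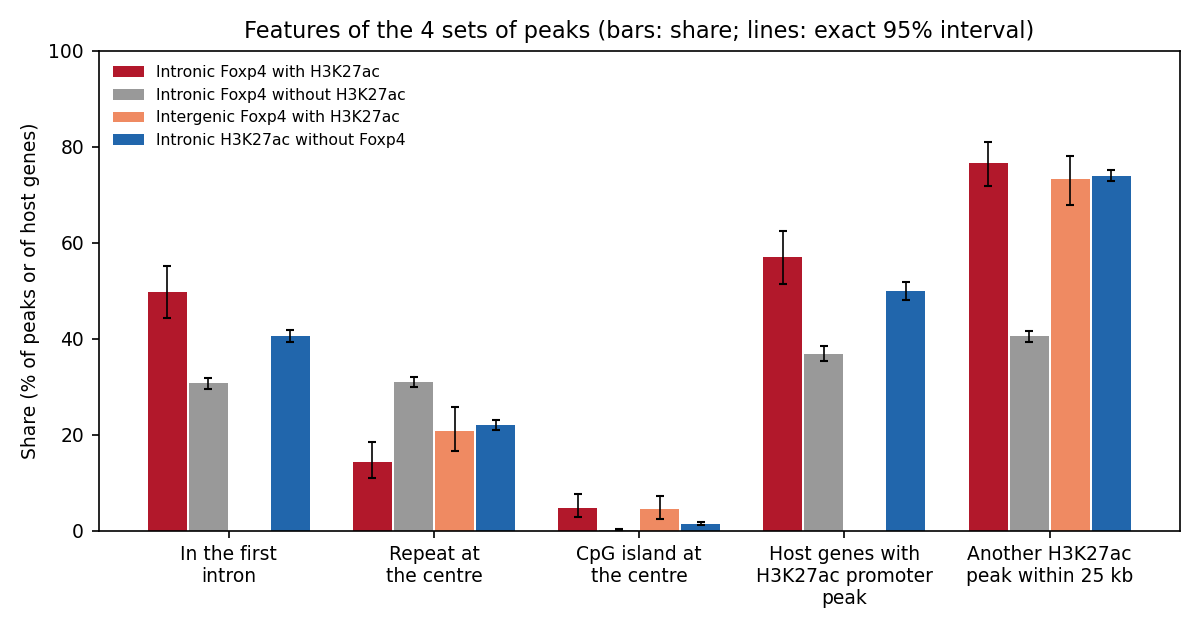
Share of peaks, or of host genes in the fourth group of bars (y axis, %), with each feature in 4 sets of peaks; lines are exact 95% intervals, and intergenic peaks have no intron or host gene. The acetylated intronic Foxp4 peaks stand at 49.7% in the first intron, 14.4% at repeats, 57.0% of host genes with an acetylated promoter and 76.6% with a further H3K27ac peak nearby.

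The regions lay in acetylated surroundings. Another H3K27ac peak was centred within 25 kb of 271 regions (76.6%, interval 71.8 to 80.9%), with a median of 2 such peaks. The share was 40.5% (interval 39.3 to 41.7%) around intronic Foxp4 peaks without H3K27ac. It was 73.2% around acetylated intergenic Foxp4 peaks and 74.0% around intronic H3K27ac peaks without Foxp4, with intervals that overlap that of the regions. Among chromosomes, the share of distal intronic Foxp4 peaks that were acetylated ran from 2.55% on chromosome 6 (12 of 471, interval 1.32 to 4.41%) to 8.30% on chromosome 5 (38 of 458, interval 5.94 to 11.2%).

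The host gene of a region is the gene whose intron holds it, matched through the transcript in the deposited annotation. A host gene was matched for 352 regions, which gave 328 genes. These are 7.72% of the 4249 genes so matched to any distal intronic Foxp4 peak. The match does not use position, and some matched genes do not hold their region by their coordinates. Bc1, for example, lies on chromosome 7 and its region on chromosome 10, and the coordinates of Gm3893 and Gm21119 miss their regions. The counts, lengths and promoter shares of host genes include such matches. For 80 regions (22.7%, interval 18.5 to 27.5%) the nearest TSS belonged to another gene, and which gene a region acts on is not known from these data. A total of 310 genes hosted 1 region, 13 hosted 2 and 5 hosted at least 3. The median host gene was 70.6 kb long, against 71.6 kb for hosts of intronic Foxp4 peaks without H3K27ac.

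Promoters of the host genes were often acetylated as well. An H3K27ac promoter peak was present at 187 of the 328 host genes (57.0%, interval 51.5 to 62.4%), against 1512 of 4102 hosts of intronic Foxp4 peaks without H3K27ac (36.9%, interval 35.4 to 38.4%) and 1364 of 2733 hosts of intronic H3K27ac peaks without Foxp4 (49.9%, interval 48.0 to 51.8%). These sets of genes overlap, since 181 of the 328 host genes also hosted an intronic Foxp4 peak without H3K27ac and 224 an intronic H3K27ac peak without Foxp4. Among hosts of those peaks that held no region, the shares were 35.9% (interval 34.4 to 37.5%) and 48.9% (interval 47.0 to 50.9%). An H3K27ac promoter peak other than the one under the region was present at 164 of the 328 host genes (50.0%, interval 44.5 to 55.5%). Among all hosts of peaks more than 5 kb from the TSS, again overlapping sets, the shares were 50.5% (interval 43.7 to 57.2%) for the regions, 36.7% (interval 35.1 to 38.3%) for intronic Foxp4 peaks without H3K27ac and 48.4% (interval 46.2 to 50.6%) for intronic H3K27ac peaks without Foxp4. A Foxp4 promoter peak was present at 42 host genes (12.8%, interval 9.39 to 16.9%), against 9.68% (interval 8.79 to 10.6%) of hosts of intronic Foxp4 peaks without H3K27ac. Hosts of intronic H3K27ac peaks without Foxp4 had one in 10.3% of cases (interval 9.17 to 11.5%). The interval of the regions overlaps both. Both promoter peaks were absent from 127 host genes.

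Zbtb16, encoding the zinc finger factor PLZF, hosted the most regions, with 4. They lay in intron 1 (score 34, 1283 bp from the TSS), in intron 2 (score 49, 90051 bp) and at 2 places of intron 3 (scores 22 and 33, 98794 and 111747 bp). Their H3K27ac scores were 50, 106, 181 and 61. The H3K27ac peaks of the regions in introns 2 and 3 were among the 29 distal intronic H3K27ac peaks of the gene, and that of the intron 1 region, of score 50, was its promoter peak. No Foxp4 peak was called at its promoter.

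Hspg2, encoding the basement membrane proteoglycan perlecan, hosted 3 regions, all in intron 1 of 96, at 7796, 19439 and 32086 bp from the TSS with Foxp4 scores of 30, 41 and 46. H3K27ac covered 43.8%, 61.5% and 6.61% of these Foxp4 peaks. Tgfbr3, the gene of the coreceptor betaglycan, hosted 3 in introns 2, 14 and 16 with scores of 41, 27 and 34, all of them recurrent ones. H3K27ac covered 23.2% of the Foxp4 peak in intron 2. The H3K27ac peaks of these regions were among 28 distal intronic ones. The nearest TSS of the regions in introns 14 and 16 was that of Cdc7. Zmiz1, a coregulator gene, hosted 3, of which that in intron 1 at 3104 bp from the TSS (score 27) had an H3K27ac score of 152. This H3K27ac peak was 3.632 kb wide and reached across that TSS. Its centre lay more than 1000 bp from the TSS, so it was not counted as a promoter peak. Ubtd1 hosted 3 in its intron 1 (scores 20, 41 and 31) with Ankrd2 as the nearest TSS, 13338 to 19013 bp away.

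**Figure D5:**
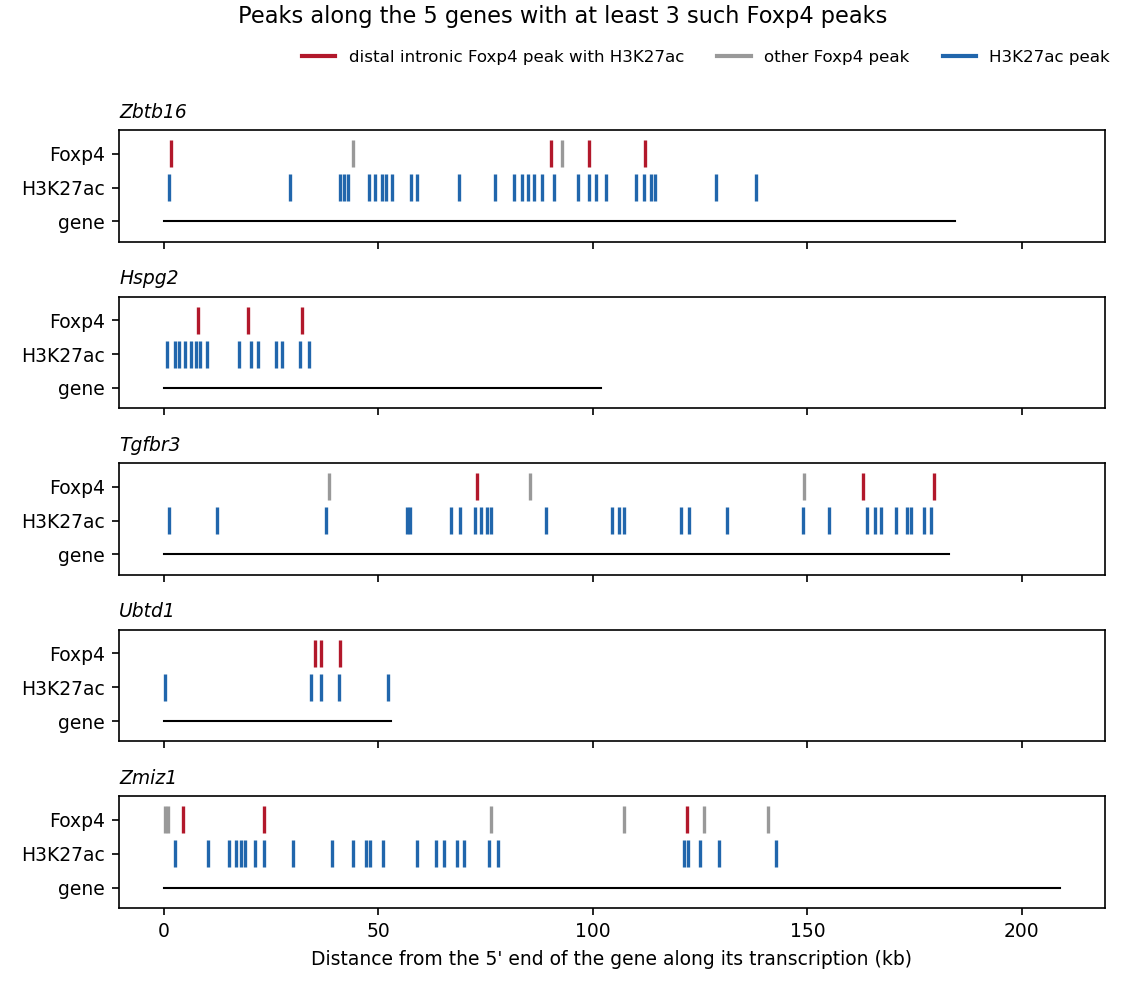
Foxp4 peaks (upper row, red where acetylated and intronic) and H3K27ac peaks (lower row) along the 5 host genes with at least 3 acetylated intronic Foxp4 peaks, by distance from the 5' end of the gene in kb (x axis); each tick is a peak centre. The regions of Hspg2 all lie in the first 33 kb of a gene of 102 kb, and those of Zbtb16 spread over intron 1 to intron 3.

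By Foxp4 score the regions were led by intron 1 of Lsamp (chr16:40614260-40614691), a cell adhesion gene, with a score of 85. The centre of this region is annotated as a LINE element of the L1Md_A family, and its H3K27ac peak scored 95. Fam149a (chr8:45358116-45358460) followed with 84 and an H3K27ac score of 51, with 22.9% of the Foxp4 peak covered. Myh9, the gene of a nonmuscle myosin heavy chain, had a region of score 82 in intron 3 (chr15:77799021-77799542), and its promoter carried an H3K27ac peak of score 104. Acss3, encoding a mitochondrial acyl-CoA synthetase, had one of score 76 in intron 1. The microtubule-associated protein gene Map4 and Tmem266 each had one of score 74. Map4 was also bound at its promoter, with a Foxp4 score of 54 and an H3K27ac score of 102.

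Regions of other genes followed closely. The forkhead genes Foxn3 and Foxk1 had scores of 71 and 64, and the region of Foxn3 was centred in a LINE element. Rere, a nuclear receptor corepressor gene, had 65 and the collagen gene Col12a1 63, with 18.6% of the Col12a1 peak covered. Mbp, the gene of myelin basic protein, had 58 in an LTR element. Tbc1d1, a regulator of glucose transporter traffic, had 57, with 31.9% of the peak covered. Nfe2l2, encoding the antioxidant factor NRF2, had 56 with an H3K27ac score of 94 and a second region of score 23. Angptl6 and the metalloprotease gene Adam12 had 56 each, and Adam12 hosted a second region of score 27. Of the 15 host genes, 7 (Myh9, Acss3, Map4, Rere, Foxk1, Nfe2l2 and Adam12) had an acetylated promoter. Over all host genes of the regions, 187 of 328 (57.0%) had one.

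The strongest H3K27ac peaks were at other genes. Eif4e2, a cap-binding protein gene, had an H3K27ac score of 202 with a Foxp4 score of 27 in intron 1, 1051 bp from the TSS, and that H3K27ac peak was the promoter peak itself. Mb, the myoglobin gene, had 185 with a Foxp4 score of 27 (chr15:77037018-77037318). Ptpa (184), Zbtb16 (181) and Hdac7 (167) came next, with Foxp4 scores of 34, 22 and 27. Among these 5 regions the Foxp4 score was at most 34, where the median over all 354 was 33. All but that of Ptpa were at or below the lower quartile of 27. The scores of Eif4e2, Mb, Ptpa and Hdac7 are recurrent ones.

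Genes of fat cell biology were then read from 18 lists, each set beside the 7.72% of all genes with a distal intronic Foxp4 peak that held an acetylated one. Of 13 adipogenic transcription factor genes with a distal intronic Foxp4 peak, 5 held a region (38.5%, interval 13.9 to 68.4%). They were Ebf1, Ebf3, Tcf7l2, Nfia and Mlxipl. Ebf1, an early B cell factor of fat cell commitment, had regions in intron 15 (score 40) and intron 10 (score 26), among 25 distal intronic H3K27ac peaks. Ebf3 had one in intron 4 (score 28), the Wnt effector gene Tcf7l2 one in intron 4 (score 34), Nfia one in its intron 10 (score 27, H3K27ac score 102) and the carbohydrate response factor gene Mlxipl one in intron 1 (score 27, H3K27ac score 87).

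Of 11 lipid genes with a distal intronic Foxp4 peak, 4 held a region (36.4%, interval 10.9 to 69.2%). Lrp1, an endocytic lipoprotein receptor gene, had one of score 56 in intron 6 of 88 (chr10:127599696-127600637, H3K27ac score 73). Mgll, encoding monoglyceride lipase, had 38 in intron 2, within an LTR element. Abca1 had 32, with only 3.04% of the peak covered. Lipe, encoding hormone-sensitive lipase, had 28 in intron 1 (H3K27ac score 43).

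In insulin signalling 4 of 19 such genes held a region (21.1%, interval 6.05 to 45.6%, which includes 7.72%). Tbc1d1 had regions of score 57 and 32, in introns 2 and 11. Foxo1, a forkhead factor restrained by insulin, had 34 in intron 1 with an H3K27ac score of 109, and the kinase gene Akt2 had 21 in intron 4.

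In TGF beta and BMP signalling 6 of 21 such genes held a region (28.6%, interval 11.3 to 52.2%), spread over receptors and intracellular members. The receptor genes were Bmpr1a (score 55, intron 5, in an LTR element, chr14:34440503-34441255) and Tgfbr3. The signal transducer gene Smad3 had 26 in intron 1, the Smad inhibitor gene Ski 40 in intron 1 and the ubiquitin ligase gene Smurf1 26 in intron 1. The target gene Id3 had 24 in intron 2, under the H3K27ac peak of score 129 that also covers its start. In the actin and focal adhesion list 6 of 29 such genes (20.7%, interval 7.99 to 39.7%) held a region, Myh9 (82), Lmna (41), Tns1 (38), Cald1 (37), Lpp (35) and Palld (28). Lmna, which this list counts, encodes lamins of the nucleus. The lower bound lies barely above 7.72%, and the share without Lmna was not computed.

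Forkhead genes held a region at 4 of 11 (36.4%, interval 10.9 to 69.2%), namely Foxn3, Foxk1, Foxo1 and Foxp1. At Foxp1, a paralogue of Foxp4, the region was in intron 1 with a score of 22 and an H3K27ac score of 61. Nuclear receptors and coregulators had 3 of 21 (14.3%, interval 3.05 to 36.3%), among them the retinoic acid receptor gene Rara (score 35, H3K27ac score 72) and Hdac7. Growth factor receptors had 2 of 15 (13.3%, interval 1.66 to 40.5%), Pdgfra (score 32, H3K27ac score 64), a marker of progenitors, and the growth hormone receptor gene Ghr (score 27, H3K27ac score 43). Both of these intervals include 7.72%.

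In each of the other lists at most 2 genes held a region. Extracellular matrix and integrin genes had 2 of 22 (9.09%, interval 1.12 to 29.2%), Col12a1 and Col4a1 (score 28), although 18 of them had distal intronic peaks of both kinds. Thermogenic and mitochondrial genes had 1 of 6, Cpt1a (score 41, H3K27ac score 58), the gate of fatty acids into mitochondria. AP-1 and stress factors had 1 of 7, Nfe2l2. Wnt genes had 1 of 12, Tcf7l2, circadian clock genes 1 of 11, Cry2 (score 23), and Hippo genes 1 of 11, Vgll3 (score 24). Genes of cAMP signalling had 0 of 14, which allows a share of up to 23.2% (upper bound of the exact 95% interval), and of which 5 had distal intronic peaks of both kinds. No region lay in a marker gene of macrophages (0 of 2, upper bound 84.2%), endothelium (0 of 5, upper bound 52.2%) or mural cells (0 of 4, upper bound 60.2%). Over all genes, 1493 had distal intronic peaks of both kinds and 303 of them (20.3%) held a region. In the lists with the highest shares, such genes numbered 11 adipogenic, 9 lipid, 11 insulin, 14 TGF beta and BMP, 21 actin and 7 forkhead ones. The shares of the lists were set beside 7.72% and not beside this higher 20.3%. Some regions named in the lists are at recurrent Foxp4 scores, among them those of Tcf7l2, Nfia, Mlxipl, Foxo1, Cpt1a, Ghr and Lmna. The lists are small and no list was tested.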

How the data were processed

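ChIP-seq peak lists of 1 Foxp4 and 1 H3K27ac library of mouse beige adipocytes were used, and the input was not used here. Per the submitters' processing notes, Bowtie2, Picard, SAMtools, MACS2, deepTools 3.3.0 and the mm10 build were used, with settings, use of the input and call threshold not given in the sources used here. Per the file headers, each list is a narrowPeak file of 1 library annotated with HOMER annotatePeaks.pl. The deposited score is a whole number of at least 20 whose scale is not stated, so scores were used only within a list. The deposited distance runs from the peak centre to the nearest TSS. Fewer peaks are called at lower depth, which is unknown here.

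Overlap was at least 1 shared bp. A Foxp4 score was called recurrent where 100 or more peaks had it and their number exceeded 3 times that of each adjacent value. Repeats and CpG islands come from the deposited detailed annotation at the peak centre. Host genes were matched by transcript accession, without use of position, to RefSeq GRCm38.p6 (352 of 354). Of 1247 promoter distances, 90.8% could be recomputed from its starts within 2 bp. The promoter table holds no chromosome 18. All 487 entries of the 18 lists matched a symbol or synonym, and list counts use genes on chromosomes 1 to 19. Intervals are Clopper-Pearson. No test was made.

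The members, lists and alternatives were chosen with earlier results of these data known. Named are the 15 highest Foxp4 scores (ties by H3K27ac score), the 5 highest H3K27ac scores, genes with at least 3 members, up to 3 members a list and those at the thresholds; further members and repeated regions of these genes were named after their values were seen. Some regions that this rule names are not reported here. Overlap and interval code was tested on simulated data. Analyses ran in Python 3.11.15 with scipy 1.17.1, pandas 2.3.3 and numpy 2.4.6, and plots were drawn with matplotlib 3.10.9.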

Additional observations from a re-analysis of the deposited data

How the results depend on the processing

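The number of regions, 354 in the lists as deposited, was 160 in the higher-scoring 50% of each list and 210 without the recurrent Foxp4 scores. The share of distal intronic Foxp4 peaks that overlapped H3K27ac, 5.08%, was 3.57% where H3K27ac had to cover at least 50% of the Foxp4 peak, 3.59% where the Foxp4 centre had to lie inside the H3K27ac peak, 4.23% beyond 3000 bp from the TSS and 11.6% without the recurrent scores. The share in the first intron, 49.7%, was 40.9% beyond 3000 bp and 55.7% without the recurrent scores. The share of host genes with an H3K27ac promoter peak, 57.0%, was 51.0% beyond 3000 bp and 44.0% in the higher-scoring 50% of each list. That last setting holds fewer promoter peaks by construction and has 150 host genes. The share of repeats, 14.4%, was 12.4 to 16.4% over the 5 alternatives, within its interval. The causes of all these changes were not tested. The search for the forkhead motif in all regions was not run, since it needs a genome sequence. No paired analysis was possible because each antibody has 1 library. Both lists limit what can be seen: a peak missing from a list was not called there, and the depth of the libraries is unknown.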

Other observations

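Outside the 354 regions, many intronic Foxp4 peaks stood close to an H3K27ac peak without touching it. Of the 6617 distal intronic Foxp4 peaks without H3K27ac, 54 had their edge within 100 bp of an H3K27ac peak, 196 within 500 bp, 317 within 1000 bp and 916 within 5000 bp. On chromosome X there were 16 distal intronic Foxp4 peaks, and 0 of them overlapped H3K27ac (upper bound of the exact 95% interval 20.6%).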
